A study of Mus musculus with 12 samples.

Results

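The genes described here are 34 genes of cholesterol and fatty acid synthesis, chosen by symbol from the 19910 genes of a count table and followed across mouse bone marrow carrying mutant SETBP1, mutant NRAS, both or neither. They were ordered by role: 7 enzymes from acetyl-CoA to farnesyl diphosphate, 11 enzymes from squalene to cholesterol, 6 regulators and sterol carriers, and 10 enzymes of fatty acid synthesis and modification. They were taken from the table by symbol, not by a threshold on a value, though with earlier results of these data known. Of the 34, 33 had enough counts to be tested and Scd1 did not.

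Bone marrow of female C57BL/6J mice aged 6 to 10 weeks was transduced with retrovirus made in 293T17 cells, a human embryonic kidney line, with the supernatants of 48 and 72 h. Each of the 4 groups received a pair of vectors: 2 empty vectors, SETBP1 D868N with an empty vector, NRAS G12D with an empty vector, or SETBP1 D868N with NRAS G12D. They are called empty, SETBP1, NRAS and SETBP1+NRAS, and every group, the control included, went through retroviral transduction. Each group had 3 RNA sequencing libraries, 12 in all. The sample titles call the material murine leukemia cells in every group, the empty group included, and do not say whether the 3 libraries of a group came from separate mice or transductions. P-values therefore measure the spread between these libraries, which may be technical.

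Cells build cholesterol from acetyl-CoA through mevalonate, farnesyl diphosphate, squalene and lanosterol, and the same acetyl-CoA feeds fatty acid synthesis through malonyl-CoA. Both routes are under the transcription factors SREBP1 and SREBP2, encoded by Srebf1 and Srebf2, which are held in the endoplasmic reticulum by the sterol sensor SCAP and the INSIG proteins while sterol is plentiful. When sterol falls, SREBP is cut free and binds sterol regulatory elements in the promoters of these genes, usually beside sites for NF-Y and Sp1. Blood-forming and myeloid cells use the products for membranes and for prenylation, the lipid anchor that holds RAS proteins at the membrane.

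Promoter sequences are shown for 5 genes whose upstream window lies outside the annotated span of the gene itself and whose levels followed different courses. Against empty, Hmgcs1 and Sc5d were lower with SETBP1, with NRAS and with both, Mvd was lower with NRAS and with both, Acly was lower with SETBP1, and Fasn was lower in none. Each sequence is the 250 bases before the RefSeq transcription start in GRCm38.p6, 5′ to 3′ on the gene's strand, and capitals mark matches on either strand to the sterol regulatory element (TCACNCCAC), the CCAAT box bound by NF-Y, the E-box (CACGTG) or the GC box bound by Sp1 (GGGCGG). Hmgcs1 lies at chr13:119690101-119690350 on the plus strand, and the others on the minus strand at chr9:42264301-42264550 for Sc5d, chr8:122443423-122443672 for Mvd, chr11:100528001-100528250 for Acly and chr11:120824548-120824797 for Fasn.
Hmgcs1: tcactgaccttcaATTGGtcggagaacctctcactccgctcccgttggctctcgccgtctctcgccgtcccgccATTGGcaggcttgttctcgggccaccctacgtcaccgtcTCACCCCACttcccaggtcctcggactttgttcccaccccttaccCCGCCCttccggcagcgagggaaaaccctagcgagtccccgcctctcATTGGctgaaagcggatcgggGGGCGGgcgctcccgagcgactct
Sc5d: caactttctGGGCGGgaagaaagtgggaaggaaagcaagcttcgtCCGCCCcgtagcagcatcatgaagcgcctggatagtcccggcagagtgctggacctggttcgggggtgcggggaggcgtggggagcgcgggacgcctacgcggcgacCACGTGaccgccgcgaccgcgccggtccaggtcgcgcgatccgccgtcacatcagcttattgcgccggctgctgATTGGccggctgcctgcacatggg
Mvd: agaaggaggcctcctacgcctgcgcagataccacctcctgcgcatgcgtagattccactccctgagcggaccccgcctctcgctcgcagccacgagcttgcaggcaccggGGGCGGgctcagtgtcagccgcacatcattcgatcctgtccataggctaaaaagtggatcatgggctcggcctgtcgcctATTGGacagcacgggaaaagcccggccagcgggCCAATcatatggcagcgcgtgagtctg
Acly: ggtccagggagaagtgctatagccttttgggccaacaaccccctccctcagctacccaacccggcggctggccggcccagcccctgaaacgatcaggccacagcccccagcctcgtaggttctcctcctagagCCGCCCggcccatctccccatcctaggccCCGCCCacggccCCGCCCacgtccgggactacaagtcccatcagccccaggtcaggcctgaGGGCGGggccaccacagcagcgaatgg
Fasn: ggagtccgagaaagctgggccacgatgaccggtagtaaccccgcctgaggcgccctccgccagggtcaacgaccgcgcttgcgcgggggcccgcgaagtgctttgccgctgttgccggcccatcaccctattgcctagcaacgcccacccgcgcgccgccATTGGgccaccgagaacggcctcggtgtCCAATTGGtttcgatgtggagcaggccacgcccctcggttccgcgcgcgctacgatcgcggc
Windows were on hand for 27 of the genes, 35 windows in all, and Fdps was not among them. The Hmgcs1 window was the single one of the 35 with the sterol element as spelled here, 2.86% against 1.00% of the windows of all genes tested. The CCAAT box stood in 60.0% of the windows against 35.3%, the E-box in 14.3% against 8.40%, and the GC box in 71.4% against 57.2%. In the printed windows, Fasn, Mvd and Sc5d share the CCAAT box with Hmgcs1, and Acly has GC boxes alone. No match overlapped a match to a different motif, whereas a pair of CCAAT matches on opposite strands of the Fasn window overlap each other. These matches describe the letters only.

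Total counts ran from 7085894 to 8864919 per library, and the 34 genes took between 0.165% and 0.266% of them. Levels are given as normalised CPM, read counts relative to the library total after TMM scaling, a trimmed mean method. Nras, the check of the labels, stood at 82.0 to 93.0 CPM in the 6 libraries without NRAS and at 1423 to 1712 CPM in the 6 with it; Setbp1 had no count in the empty and NRAS libraries, 5 to 7 counts with SETBP1 and 11 to 17 with SETBP1+NRAS. The third SETBP1 library stood apart: its log2 CPM correlated with the other two of its group at 0.946 and 0.953, against 0.984 to 0.991 for all other pairs of one group. In that library Hsd17b7 was lower than the mean of the other two by 1.46 on the log2 scale, Fasn by 1.25, Scd2 by 1.23, Srebf2 by 1.01 and Acaca by 0.95, whereas Lpin1 was higher by 0.88, Mvd by 0.61 and Pmvk by 0.58. Across the 33 genes this difference was related to summed exon length with a Spearman rho of -0.50, and across 10974 genes with one of -0.39, points that share 3 libraries. Results are therefore also given without this library where it changes a call of the genes described.

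**Figure D1:**
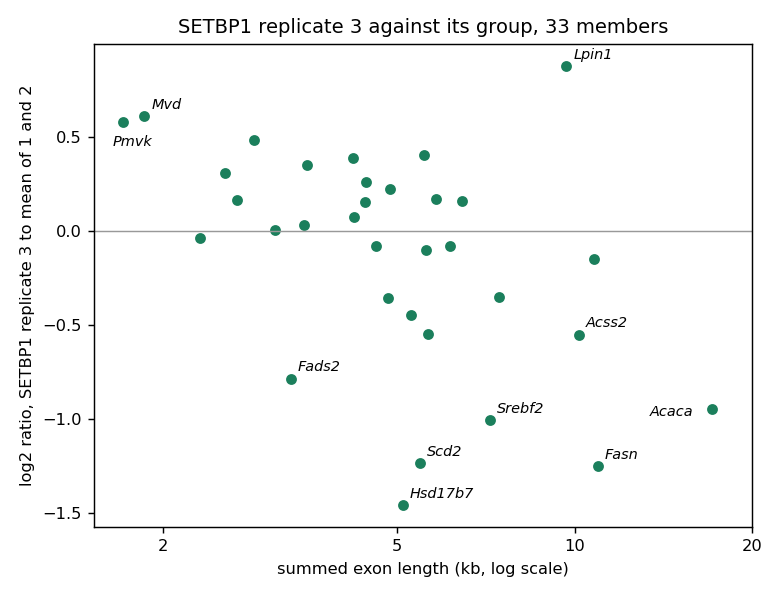
Log2 ratio of the third SETBP1 library to the mean of the other 2 (vertical axis) against summed exon length in kb (log scale) for the 33 genes tested, 1 point per gene. Several long genes, Fasn and Acaca among them, lie below 0, whereas the short Pmvk and Mvd lie above it and Lpin1 is the highest.

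Most of the genes that moved were lower in the mutant groups, and none rose against empty. With SETBP1, 10 of 33 fell (30.3%) and none rose, where 14.9% of the 10993 genes tested were called in either direction, 6.55% lower and 8.31% higher. With NRAS, 14 of 33 fell (42.4%), against 32.5% called, 15.5% lower and 17.0% higher among all genes. With SETBP1+NRAS, 19 of 33 fell (57.6%), against 40.6% called, 19.8% lower and 20.8% higher among all genes. Without the third SETBP1 library the counts lower were 12, 17 and 22, and Lss and Fasn were called higher with NRAS and Fasn with both; the share of all genes called in that fit was 15.3%, 47.0% and 53.7%. The share of the genes called in either direction was thus nearer to the share among all genes than the share called lower was. A call is an edgeR quasi-likelihood p, adjusted by Benjamini-Hochberg over all genes tested, under 0.05.

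The median log2 fold change of the 33 genes was -0.32 with SETBP1, -0.28 with NRAS and -0.39 with both, while the median of all genes was -0.01 in each. Summed over the 34 genes, the 3 empty libraries held 2341, 2393 and 2543 normalised CPM at their lowest, median and highest. The SETBP1 libraries held 1832, 1961 and 1995, the NRAS libraries 1933, 1966 and 2071, and the SETBP1+NRAS libraries 1735, 1741 and 1760. All 9 mutant libraries lay below all 3 empty ones, and the SETBP1+NRAS libraries lay lowest, whereas SETBP1 and NRAS overlapped. These 3 comparisons share the empty libraries and are set side by side only.

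The calls with SETBP1 depended on single libraries. Their number fell from 10 to 1 without empty library 1 or 3, the remaining one being Cyp51 in both, to 5 without empty library 2, and to 0 when only the SETBP1 and empty libraries were fitted; without the third SETBP1 library it was 12, with Acss2 lost and Fdps, Sqle and Scd2 gained. When each library was left out in turn, the median log2 fold change of the genes with SETBP1 stayed between -0.34 and -0.31. The share of all genes called was 15.3% without the third SETBP1 library and is not given here for the other fits. The loss of calls is therefore not shown to be particular to the lipid genes. In bulk RNA, fewer cells of a type and less RNA per cell cannot be told apart.

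**Figure D2:**
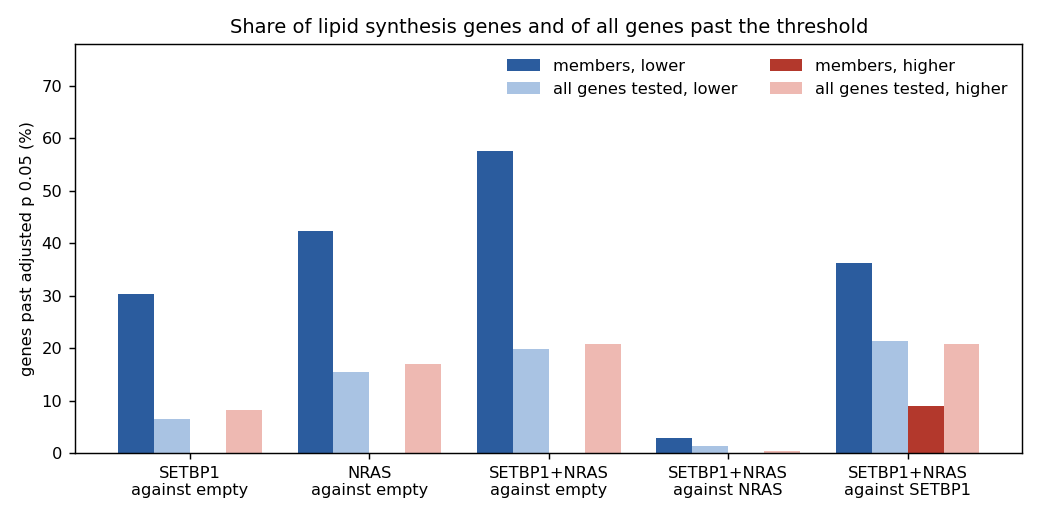
Percentage of genes past an adjusted p of 0.05 in the 5 pairwise comparisons (horizontal axis), with dark bars for the 33 lipid synthesis genes and pale bars for all 10993 genes tested, blue for lower and red for higher. Against empty, 30.3%, 42.4% and 57.6% of the lipid genes were lower, above 6.55%, 15.5% and 19.8% of all genes, and none was higher.

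Most of the 7 enzymes from acetyl-CoA to farnesyl diphosphate fell with NRAS. Their summed level was 532 to 575 CPM with empty vectors, 425 to 559 with SETBP1, 318 to 336 with NRAS and 261 to 265 with SETBP1+NRAS. SETBP1 overlapped with empty, and the groups with NRAS lay below both. With NRAS 5 of 7 fell (Acat2, Hmgcs1, Mvk, Mvd and Fdps), with SETBP1+NRAS 4 (the same without Mvk), and with SETBP1 2 (Hmgcs1 and Idi1). These shares of 71.4%, 57.1% and 28.6% stand beside 15.5%, 19.8% and 6.55% of all genes called lower. In either direction 32.5%, 40.6% and 14.9% of all genes were called.

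Fdps makes farnesyl diphosphate, the branch point between sterols and the prenyl groups of RAS proteins. Its level was 274, 261 and 295 CPM in the empty libraries, 211, 211 and 277 with SETBP1, 155, 149 and 132 with NRAS, and 107, 99.2 and 100 with SETBP1+NRAS. The SETBP1+NRAS libraries were below all NRAS libraries, which were below all SETBP1 and empty libraries; only the third SETBP1 library reached into the empty range. The log2 fold change was -0.93 (SE 0.11, edgeR adjusted p 1.74e-05) with NRAS and -1.44 (SE 0.11, adjusted p 2.01e-07) with SETBP1+NRAS, or 2.71-fold lower. With SETBP1 it was -0.25 (SE 0.10, adjusted p 0.116), and -0.39 (adjusted p 0.00215) without the third SETBP1 library.

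Hmgcs1, which condenses acetyl-CoA with acetoacetyl-CoA and carries the sterol element printed above, was 97.0 ± 5.17 CPM (SD, n = 3) with empty vectors, 74.2 ± 2.28 with SETBP1, 66.9 ± 4.24 with NRAS and 53.1 ± 4.16 with both. Its log2 fold changes against empty were -0.39 (SE 0.09), -0.53 (SE 0.09) and -0.87 (SE 0.09), and each of the mutant groups lay wholly below empty. Acat2, the cytosolic thiolase at the head of the route, fell by 0.73 with NRAS and by 0.95 with both on the log2 scale, and was -0.14 (SE 0.12, adjusted p 0.426) with SETBP1. Acat2 has a near-identical neighbour, Acat3, in the mouse genome, and how reads were divided between them is not given in the sources used here. Mvd, the decarboxylase that yields isopentenyl diphosphate, fell by 0.77 and 0.92 with NRAS and with both, against 0.06 (SE 0.16) with SETBP1.

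Idi1, the isomerase that supplies dimethylallyl diphosphate, differed from these. It stood at 16.8, 17.7 and 19.3 CPM with empty vectors, 11.3, 8.49 and 12.8 with SETBP1, 14.1, 14.2 and 15.8 with NRAS, and 10.3, 14.8 and 15.9 with both. All 9 mutant libraries were below the empty ones, and the mean was lowest with SETBP1. It fell by 0.72 on the log2 scale with SETBP1 (SE 0.19, adjusted p 0.0249) and was -0.28 (SE 0.19, adjusted p 0.275) with NRAS and -0.39 (SE 0.19, adjusted p 0.12) with both. Mvk, which phosphorylates mevalonate, fell by 0.51 with NRAS and was -0.34 with both (adjusted p 0.0651, and 0.0366 without the third SETBP1 library). Pmvk, the next kinase, passed the threshold against empty in no group, with log2 fold changes of 0.41, -0.27 and -0.36.

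**Figure D3:**
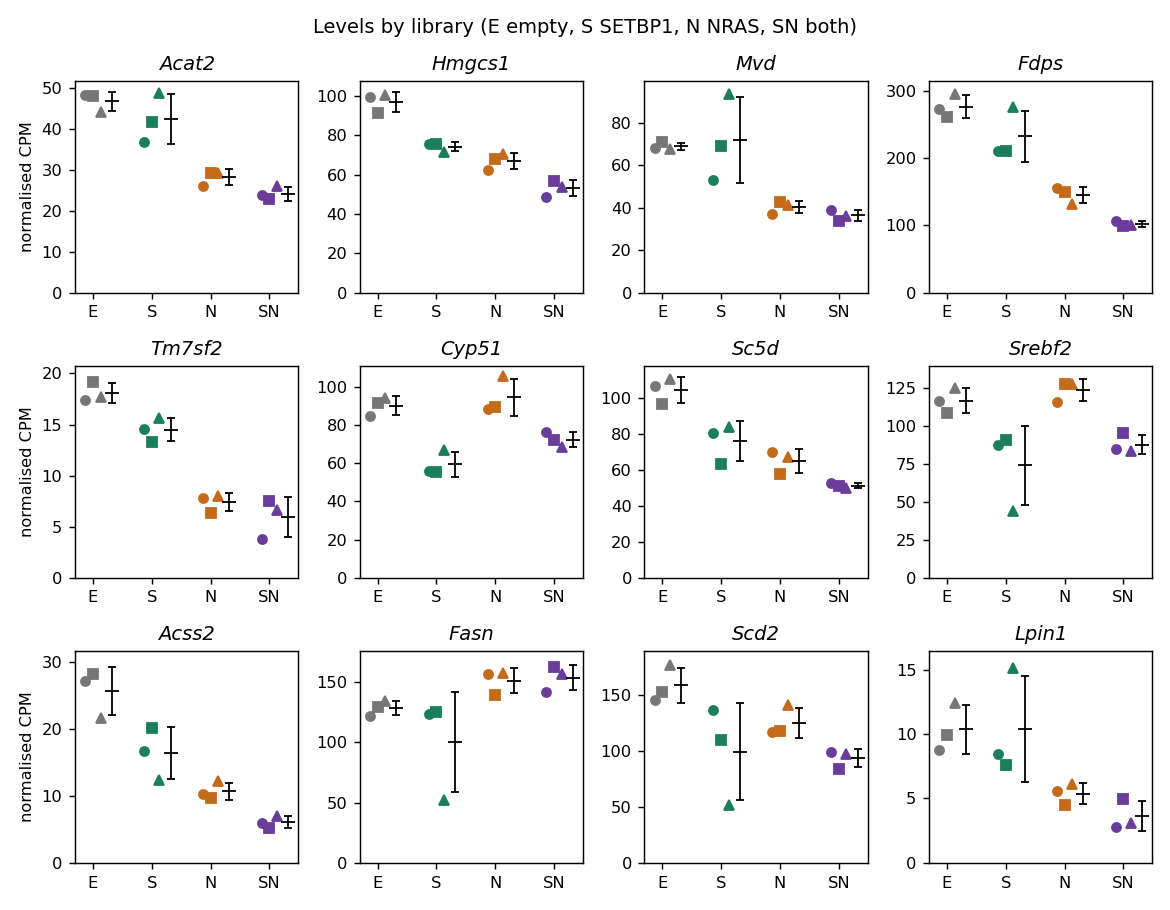
Normalised CPM (vertical axes, each from 0) of 12 of the genes in each library of the empty (E), SETBP1 (S), NRAS (N) and SETBP1+NRAS (SN) groups; circles, squares and triangles are libraries 1, 2 and 3, and the bar is the mean with its SD. Fdps and Acss2 were lowest with both mutants, Cyp51 was lower with SETBP1 and not with NRAS alone, and the third SETBP1 library (green triangle) stood apart in Fasn, Scd2 and Srebf2.

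Of the 11 enzymes from squalene to cholesterol, 10 fell with SETBP1+NRAS, all but Lss, while 5 fell with NRAS and 4 with SETBP1. Their summed level was 701 to 735 CPM with empty vectors, 560 to 621 with SETBP1, 559 to 624 with NRAS and 500 to 513 with both, so that both single mutants lay below empty and overlapped each other. With NRAS those that fell were Tm7sf2, Nsdhl, Ebp, Sc5d and Dhcr7, all of which act after lanosterol. With SETBP1 they were Fdft1, Cyp51, Msmo1 and Sc5d. The shares of 90.9% with both, 45.5% with NRAS and 36.4% with SETBP1 stand beside 19.8%, 15.5% and 6.55% of all genes called lower. In either direction 40.6%, 32.5% and 14.9% of all genes were called.

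Tm7sf2, a sterol C14 reductase, had the largest fall of this group. It stood at 17.4, 19.2 and 17.7 CPM with empty vectors, 14.6, 13.3 and 15.6 with SETBP1, 7.80, 6.36 and 7.99 with NRAS, and 3.78, 7.55 and 6.59 with both. The groups with NRAS overlapped each other and lay well below SETBP1, which lay below empty. The log2 fold change was -1.29 (SE 0.21, adjusted p 0.000366) with NRAS and -1.59 (SE 0.22, adjusted p 5.06e-05) with both, against -0.32 (SE 0.20, adjusted p 0.277) with SETBP1. Exons of Vps51 on the same strand cover 12.1% of its exon bases, and reads there could belong to either gene.

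Cyp51, the lanosterol 14-demethylase, took the opposite course. It stood at 84.6, 91.6 and 94.2 CPM with empty vectors, 55.6, 55.5 and 66.8 with SETBP1, 88.4, 89.4 and 105 with NRAS, and 76.2, 72.3 and 68.2 with both. NRAS overlapped with empty, SETBP1 lay below every other library, and SETBP1+NRAS lay between. It fell by 0.60 with SETBP1 (SE 0.10, adjusted p 0.00393) and by 0.32 with both (SE 0.10, adjusted p 0.0236), and was 0.07 (SE 0.10, adjusted p 0.653) with NRAS. Msmo1, the next demethylase, shared this course at a smaller size: it fell by 0.30 with SETBP1 (adjusted p 0.0231) and by 0.28 with both (adjusted p 0.0108), and was -0.03 (adjusted p 0.802) with NRAS.

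Lss, which closes squalene epoxide into lanosterol, stood at 29.98, 27.4 and 32.9 CPM with empty vectors, 25.7, 22.7 and 21.8 with SETBP1, 31.6, 42.8 and 41.7 with NRAS, and 31.3, 32.6 and 31.8 with both. SETBP1 lay below all other groups, and NRAS and SETBP1+NRAS overlapped with empty. Its log2 fold change was -0.36 (SE 0.14, adjusted p 0.081) with SETBP1 and 0.36 (SE 0.13, adjusted p 0.0509) with NRAS, neither past the threshold; without the third SETBP1 library the latter was 0.36 with adjusted p 0.0172.

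Sc5d, the lathosterol oxidase, fell by 0.46, 0.68 and 1.03 on the log2 scale with SETBP1, NRAS and both. Dhcr7, which makes cholesterol in the last step of one branch, fell by 0.61 with NRAS and 0.68 with both, Nsdhl by 0.62 and 0.94, and Ebp, the sterol isomerase, by 0.35 and 0.39. Hsd17b7, a keto-reductase of the sterol ring, fell by 0.97 with both (SE 0.36, adjusted p 0.0441). Sqle, the epoxidase before Lss, fell by 0.37 with both, and without the third SETBP1 library also by 0.32 with SETBP1 and 0.25 with NRAS, and Fdft1, which joins farnesyl diphosphates into squalene, fell by 0.42 with SETBP1 and 0.47 with both. Exons of Ctsb on the other strand cover 18.3% of the exon bases of Fdft1, and no strand setting is given in the sources used here.

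**Figure D4:**
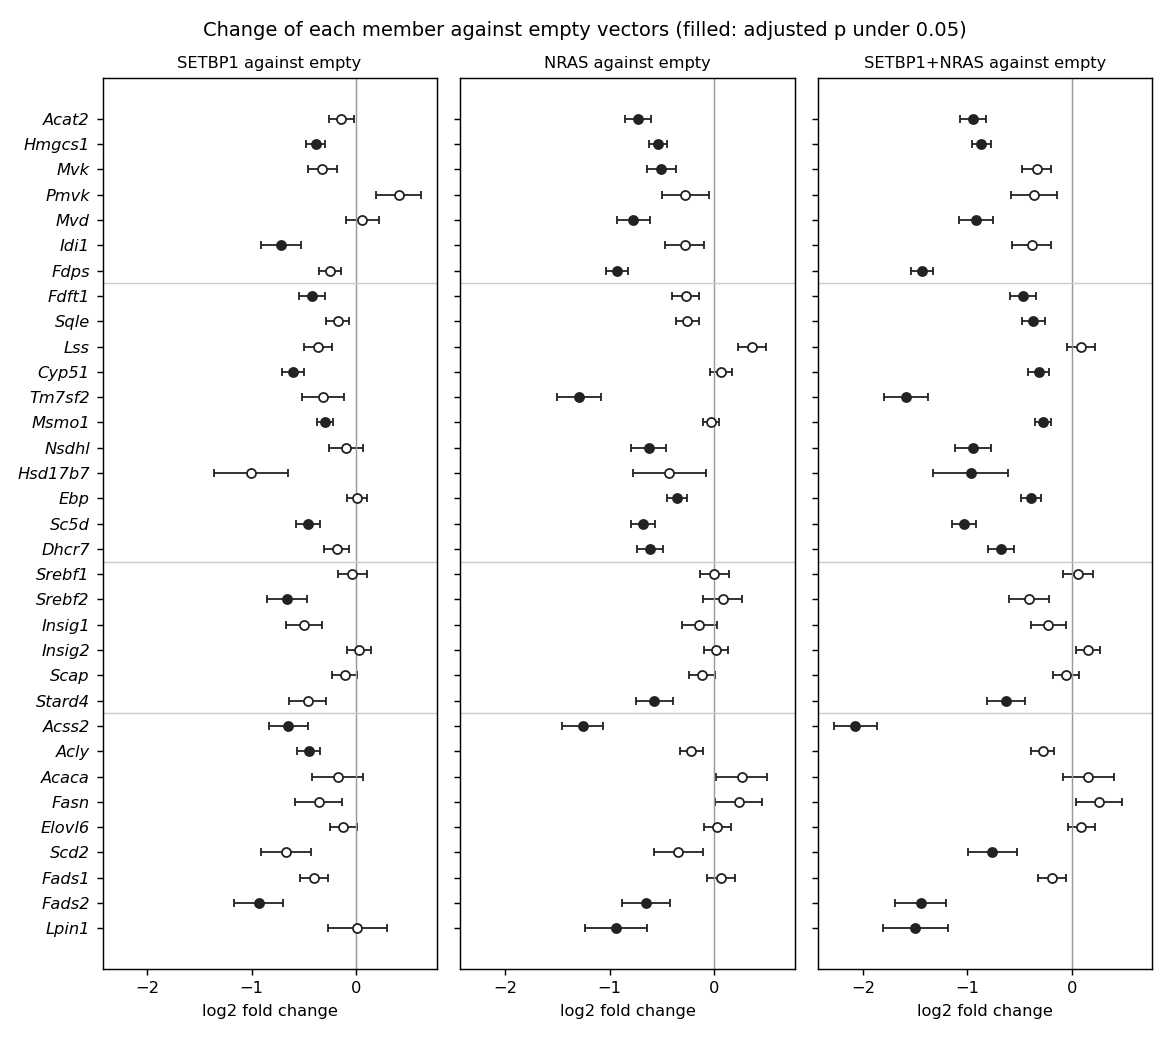
Log2 fold change (horizontal axis) of each of the 33 genes tested against empty vectors for SETBP1, NRAS and SETBP1+NRAS, with bars of 1 SE and filled points past an adjusted p of 0.05. Grey lines part the 4 role groups from top to bottom; all filled points lie left of 0, and the 5 regulators from Srebf1 to Scap hold 1 filled point, Srebf2 with SETBP1.

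Few of the regulators passed the threshold. Among Srebf1, Srebf2, Insig1, Insig2, Scap and Stard4, 1 of 6 (16.7%) fell in each comparison with empty, against 6.55%, 15.5% and 19.8% of all genes lower: Srebf2 with SETBP1, and Stard4 with NRAS and with both. Stard4, a carrier of cholesterol between membranes, fell by 0.57 with NRAS (SE 0.18, adjusted p 0.0235) and 0.63 with both (SE 0.18, adjusted p 0.0115).

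Srebf2, whose product drives cholesterol synthesis, stood at 116, 108 and 125 CPM with empty vectors, 86.9, 90.8 and 44.0 with SETBP1, 115, 127 and 128 with NRAS, and 84.3, 94.8 and 83.6 with SETBP1+NRAS. All 6 libraries with SETBP1 lay below all 6 without it, and the third SETBP1 library was far below the rest. The log2 fold change with SETBP1 was -0.66 (SE 0.19, adjusted p 0.0365), and -0.39 (SE 0.09, adjusted p 0.00555) without that library. With NRAS it was 0.08 (SE 0.19, adjusted p 0.775). With both it was -0.41 (SE 0.19, adjusted p 0.104), which passed the threshold at adjusted p 0.000185 once the third SETBP1 library, which is in neither group, no longer entered the shared estimate of the spread.

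Srebf1, whose product favours the fatty acid genes, stood at 75.1, 60.8 and 67.7 CPM with empty vectors, 73.3, 75.1 and 50.6 with SETBP1, 62.5, 72.1 and 69.8 with NRAS, and 65.7, 68.3 and 78.6 with both. Scap, the sterol sensor, stood at 57.9, 46.7 and 60.5 CPM, then 54.8, 55.1 and 43.1, then 48.6, 53.8 and 50.3, and 51.5, 56.8 and 50.3 in the same order of groups. All 4 groups overlapped for both genes. Their log2 fold changes against empty lay between -0.11 and 0.06, and the 95% intervals reached from -0.38 to 0.37, so changes of that size are not excluded.

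Insig1, a retention protein that is itself a target of SREBP, stood at 18.6, 18.3 and 24.3 CPM with empty vectors, 13.4, 15.4 and 14.4 with SETBP1, 21.3, 15.02 and 19.0 with NRAS, and 18.5, 18.4 and 15.3 with both. SETBP1 lay below empty, with a log2 fold change of -0.50 (SE 0.17, adjusted p 0.0619) that missed the threshold, and the other groups overlapped with empty. Insig2, the second retention protein, stood at 35.1, 30.9 and 29.0 CPM, then 31.2, 33.1 and 32.9, then 32.8, 33.6 and 30.2, and 35.1, 38.5 and 32.2, with all groups overlapping.

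Fatty acid genes split into those that fell and those that did not. Of the 9 tested, 3 fell with SETBP1 (Acss2, Acly and Fads2), 3 with NRAS (Acss2, Fads2 and Lpin1) and 4 with both (Acss2, Scd2, Fads2 and Lpin1). These shares of 33.3%, 33.3% and 44.4% stand beside 14.9%, 32.5% and 40.6% of all genes called in either direction. Those with NRAS and with both are near that share. All of these calls were lower, where 6.55%, 15.5% and 19.8% of all genes were called lower. The summed level of the fatty acid genes, with Scd1, was 816 to 893 CPM with empty vectors, 447 to 696 with SETBP1, 714 to 815 with NRAS and 676 to 707 with both. The lowest of these was the third SETBP1 library.

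Acss2 turns free acetate into acetyl-CoA in the cytosol and nucleus, and with SETBP1+NRAS it had the largest fall against empty of all 33 genes. It stood at 27.2, 28.2 and 21.6 CPM with empty vectors, 16.7, 20.1 and 12.4 with SETBP1, 10.3, 9.74 and 12.2 with NRAS, and 6.01, 5.25 and 6.996 with SETBP1+NRAS. Every mutant library was below every empty one, all SETBP1+NRAS libraries were below all others, and NRAS lay below SETBP1. The log2 fold change was -0.65 (SE 0.19, adjusted p 0.0359) with SETBP1, -1.26 (SE 0.20, adjusted p 0.000249) with NRAS and -2.08 (SE 0.21, adjusted p 3.15e-06) with both, or 4.22-fold lower. The SETBP1 value was -0.48 with adjusted p 0.0524 without the third SETBP1 library.

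Acly, the other source of cytosolic acetyl-CoA, from citrate, had the highest level per exon length of the genes with empty vectors, at 77.8 CPM per kb, followed by Fdps at 65.7 and Ebp at 37.9. It fell by 0.45 with SETBP1 (SE 0.11, adjusted p 0.0177), was -0.22 (adjusted p 0.143) with NRAS and -0.28 (adjusted p 0.0541) with both. Without the third SETBP1 library both of these were called, with adjusted p 0.0107 and 0.00138. Acaca, which makes malonyl-CoA, and Elovl6, which extends palmitate, passed the threshold in no comparison.

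Fasn, the fatty acid synthase, stood at 122, 129 and 134 CPM with empty vectors, 123, 126 and 52.1 with SETBP1, 157, 139 and 158 with NRAS, and 142, 162 and 157 with both. The NRAS and SETBP1+NRAS libraries lay above all empty ones, and the third SETBP1 library lay far below all others. The log2 fold change was 0.24 (SE 0.22, adjusted p 0.457) with NRAS and 0.26 (SE 0.22, adjusted p 0.382) with both. Without the third SETBP1 library these were 0.24 (SE 0.07, adjusted p 0.0102) and 0.26 (SE 0.07, adjusted p 0.00444), both past the threshold.

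Scd2 and Scd1 are paralogs that put the first double bond into stearate. Scd2 stood at 146, 153 and 177 CPM with empty vectors, 137, 110 and 52.2 with SETBP1, 117, 118 and 141 with NRAS, and 99.2, 84.2 and 97.5 with both. All mutant libraries lay below the empty ones, and it fell by 0.76 with both (SE 0.24, adjusted p 0.0199). It was also called with SETBP1 (-0.36, adjusted p 0.0302) and with NRAS (-0.34, adjusted p 0.00732) once the third SETBP1 library was left out. Scd1, the main form in liver, was near the limit of detection in every group, with 0 to 9 counts per library, or 0.553, 0.381 and 0.135 CPM with empty vectors, 0.361, 0.261 and 0 with SETBP1, 0.529, 0 and 0.254 with NRAS, and 1.26, 0 and 0.135 with both. Per kb of exon Scd2 stood at 29.1 CPM and Scd1 at 0.0728 with empty vectors.

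Fads2, which begins the synthesis of polyunsaturated fatty acids, stood at 13.1, 14.1 and 15.4 CPM with empty vectors, 8.67, 8.75 and 4.85 with SETBP1, 7.53, 7.98 and 11.5 with NRAS, and 5.17, 5.38 and 4.98 with both. Every mutant library was below every empty one. It fell by 0.93 (SE 0.24, adjusted p 0.0208), 0.65 (SE 0.23, adjusted p 0.0466) and 1.45 (SE 0.25, adjusted p 0.000345) on the log2 scale. Fads1, the next desaturase, passed the threshold in no comparison, at -0.40, 0.07 and -0.19.

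Lpin1, a phosphatidate phosphatase that feeds triglyceride synthesis, stood at 8.74, 9.91 and 12.4 CPM with empty vectors, 8.43, 7.58 and 15.1 with SETBP1, 5.55, 4.46 and 6.08 with NRAS, and 2.80, 4.99 and 3.09 with both. SETBP1 overlapped with empty and both groups with NRAS lay below. It fell by 0.94 with NRAS (SE 0.30, adjusted p 0.0267) and had a log2 fold change of -1.499 with both (SE 0.31, adjusted p 0.00164), against 0.01 (SE 0.28) with SETBP1.

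Adding NRAS to SETBP1 lowered Fdps, Tm7sf2, Acss2 and Lpin1 as NRAS alone did. SETBP1+NRAS against SETBP1 gave 15 calls among the 33 genes (45.5%), 12 lower and 3 higher, where 42.4% of all genes were called, 21.5% lower and 20.9% higher. The share called in either direction was thus near that of all genes. Fdps fell by 1.19, Tm7sf2 by 1.27, Acss2 by 1.43 and Lpin1 by 1.51 on the log2 scale, and Acat2, Hmgcs1, Pmvk, Mvd, Nsdhl, Ebp, Sc5d and Dhcr7 fell by 0.40 to 0.98. Pmvk fell by 0.77 here (SE 0.22, adjusted p 0.0132), its level being highest with SETBP1. The genes that rose were Fasn by 0.62 (SE 0.23, adjusted p 0.0414), Lss by 0.45 (SE 0.14, adjusted p 0.0167) and Cyp51 by 0.28 (SE 0.10, adjusted p 0.0419), and each had its lowest mean in the SETBP1 group.

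Scaling by library size alone left 13 calls, all lower, and none of the 3 rises. Without the third SETBP1 library Fasn was 0.31 (SE 0.08, adjusted p 0.00412), and Scd2 and Fads2 were called lower as well, Scd2 at -0.40 (adjusted p 0.00578) against -0.09 (adjusted p 0.788) with it, and Fads2 at -0.75 (adjusted p 0.00996) against -0.52 (adjusted p 0.117). NRAS against empty and SETBP1+NRAS against SETBP1 have no library in common. Of the calls, 11 were in both lists, 11 of 14 and 11 of 15, where 32.5% and 42.4% of all genes were called. This overlap, the signs and the correlations were not computed over all genes, so they are not shown to be particular to the lipid genes. Of the 33 genes 18 lay below 0 in both comparisons, 9 above 0 in both and 6 on opposite sides, with r 0.91 (Pearson) and rho 0.91 (Spearman); the points are genes of the same libraries and no replicates of each other.

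Adding SETBP1 to NRAS left 1 of 33 genes called (3.03%), where 1.91% of all genes were called, 1.38% lower and 0.528% higher. That gene was Fdps, whose 3 SETBP1+NRAS libraries all lay below the 3 NRAS libraries, with a log2 fold change of -0.51 (SE 0.11, 95% interval -0.74 to -0.28, adjusted p 0.0266). Its call was lost without empty library 1, NRAS library 1 or 2, or any SETBP1+NRAS library, and over all alternatives its value lay between -0.57 and -0.46 with an adjusted p of up to 0.124. Without the third SETBP1 library, which is in neither group, 9 of 33 genes were called, all lower. In that fit 7.52% of all genes were called in either direction. The 9 genes were Hmgcs1, Fdps, Cyp51, Msmo1, Sc5d, Srebf2, Acss2, Scd2 and Fads2. Fitting only the groups compared also gave 9, and the share of all genes called in that fit is not given here.

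In each of these the SETBP1+NRAS libraries lay below all NRAS libraries. The genes were picked by a call on these same libraries, so this adds no support to it. Of all 33 genes, 10 lay so, and the share over all genes tested was not counted. Acss2 was -0.82 (SE 0.22, 95% interval -1.28 to -0.36), Fads2 -0.80 (SE 0.25, -1.34 to -0.26), Srebf2 -0.49 (SE 0.19, -0.91 to -0.08), Cyp51 -0.39 (SE 0.10, -0.61 to -0.17) and Hmgcs1 -0.33 (SE 0.09, -0.53 to -0.14) with all 12 libraries fitted, at adjusted p of 0.077, 0.155, 0.286, 0.0806 and 0.0884. Over the 33 genes the median was -0.20, against 0.00 over all genes. SETBP1 against empty and SETBP1+NRAS against NRAS have no library in common either: 23 genes lay below 0 in both, 1 above 0 in both and 9 on opposite sides, with r 0.54 and rho 0.46 across genes. These values too were not computed over all genes tested.

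**Figure D5:**
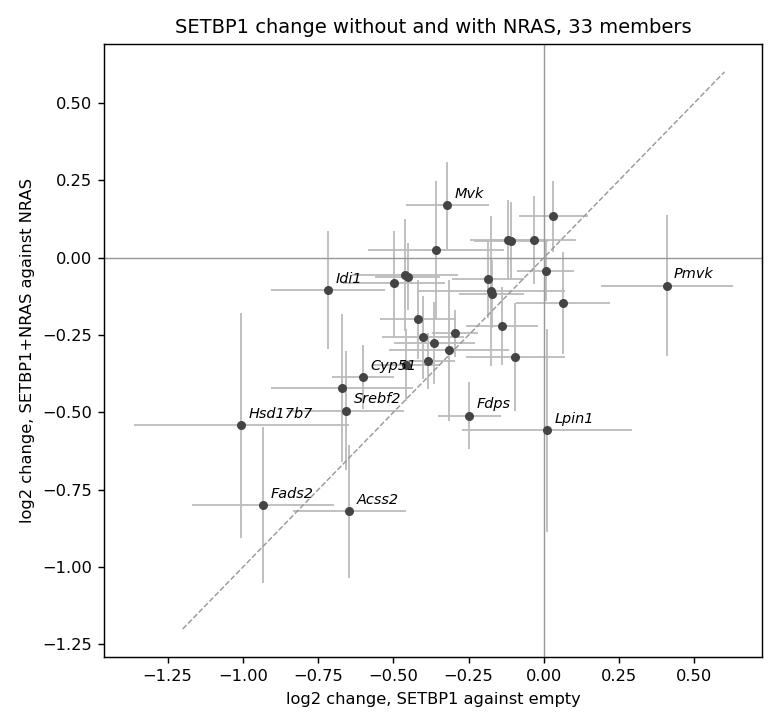
Log2 change of the 33 genes for SETBP1 against empty (horizontal axis) and for SETBP1+NRAS against NRAS (vertical axis), with bars of 1 SE and a dashed line of equal change. Acss2, Fads2, Srebf2 and Cyp51 lie below 0 on both axes, Fdps lies below the line of equal change and Idi1 above it.

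The interaction compares the SETBP1 change in the presence of NRAS with that in its absence, as a difference of log2 values. It passed the threshold for 0 of the 33 genes by edgeR, DESeq2 and limma-voom alike, where 0.0455% of all genes passed by edgeR, 0.00910% with a positive and 0.0364% with a negative sign. Without adjustment 3 of the 33 genes had p under 0.05, where 1420 of all 10993 did: Acly at 0.39 (95% interval 0.06 to 0.72, adjusted p 0.34), Mvk at 0.49 (0.07 to 0.91, adjusted p 0.344) and Idi1 at 0.61 (0.04 to 1.19, adjusted p 0.367). In these 3 the SETBP1 value was lower without NRAS than with it. The intervals are wide for the others too: Acss2 -0.17 (-0.79 to 0.44), Fdps -0.26 (-0.58 to 0.06), Cyp51 0.22 (-0.10 to 0.53) and Srebf2 0.16 (-0.42 to 0.74). Equal SETBP1 changes with and without NRAS are not shown by these values.

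Other genes of lipid metabolism that are not among the 34 were counted from a list of 57, of which 56 were in the table and 50 were tested. With SETBP1 4 were higher and 8 lower, with NRAS 7 and 14, with both against empty 9 and 15, with both against NRAS 0 and 2, and with both against SETBP1 8 and 18. In that order 24%, 42%, 48%, 4% and 52% of the 50 were called, beside 14.9%, 32.5%, 40.6%, 1.91% and 42.4% of all genes. With SETBP1, the cholesterol exporter Abca1 rose by 1.76 (SE 0.42), the lysosomal lipase Lipa by 0.60, the lysosomal cholesterol carrier Npc2 by 0.40 and the malic enzyme Me1 by 2.31 (SE 0.67). Me1 is a low gene, at 0.254 to 0.675 CPM with empty vectors and up to 5.32 in the third SETBP1 library. Without that library Me1 was 1.08 (adjusted p 0.211) and Lipa 0.23 (adjusted p 0.0503), so that neither rise was called. Among the lower ones, Gpam and Dgat2, which build triglycerides, fell by 1.04 and 0.50, the elongases Elovl7 and Elovl5 by 0.81 and 0.58, and Nceh1 and Soat1, which split and make cholesterol esters, by 0.47 and 0.23. Without the third SETBP1 library Soat1 was -0.20 (adjusted p 0.0656) and no longer called, and Gpam was -0.66 (adjusted p 0.0409) and Nceh1 -0.30 (adjusted p 0.0479).

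With NRAS the largest rises were of Me1 (2.62), the carbohydrate-response factor Mlxipl (1.68) and Acsl4 (0.96), which activates arachidonate, and the largest falls of Abca1 (-2.02), Dgat1 (-0.996) and Nr1h3 (-0.98), which encodes LXR alpha. With both, Mlxipl (2.45), Me1 (2.23) and Acsl4 (1.07) rose most, and Dgat1 (-1.41), Elovl7 (-1.33) and Mylip (-1.23) fell most. Mlxipl is a low gene, with 3 to 4 counts per empty library, 2 to 4 with SETBP1, 9 to 13 with NRAS and 12 to 26 with both. Abca1 had 25, 26 and 36 counts with empty vectors and 14, 4 and 2 with NRAS. Against NRAS, both mutants together lowered Elovl7 (-0.78, adjusted p 0.00846) and Dgat2 (-0.44, adjusted p 0.0489). Without the third SETBP1 library, which is in neither group, further genes were called, where 7.52% of all genes were called in either direction. Among them, Nceh1 (0.38, edgeR adjusted p 0.0107), Lipa (0.26, adjusted p 0.0266) and Soat1 (0.22, adjusted p 0.0347) were higher. Vldlr (-0.65, adjusted p 0.0200) and Lrp8 (-0.24, adjusted p 0.0426) were lower. Against SETBP1, Mlxipl (2.73), Acsl4 (1.46) and Gpam (0.90) rose most and Abca1 (-2.31), Abcg1 (-1.26) and Mylip (-1.21) fell most. The Gpam value was 0.52 (adjusted p 0.0548) without the third SETBP1 library, and Me1, at -0.08 (adjusted p 0.923) with it, was 1.15 (adjusted p 0.0433).

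Markers of cell types moved with the same groups. The summed level of 7 late neutrophil genes ran from 6552 to 7310 CPM with empty vectors, 3015 to 4715 with SETBP1, 1944 to 2591 with NRAS and 791 to 896 with both, and 6 of the 7 passed the threshold in each comparison with empty, all lower but 1 with NRAS. That of 5 early granule genes ran from 24584 to 27211, 18208 to 19994, 9863 to 11478 and 5750 to 6304 CPM, and that of 8 mast cell and basophil genes from 2907 to 2999, 1571 to 2250, 496 to 833 and 237 to 353 CPM. The sums of these lists fell in the same order of groups as Fdps and Acss2. With empty vectors Ngp, Mpo and Prss34 led them, at means of 4252, 15347 and 1758 CPM. Not every gene followed this order. Mean Mmp9 was 74.3 CPM with empty vectors and 145 with NRAS. In the order of groups, means were 27.6, 5.28, 28.0 and 4.27 CPM for Retnlg and 347, 276, 119 and 193 for Mmp8. They were 828, 493, 515 and 233 CPM for Lcn2, 167, 99.4, 119 and 79.3 for Gata2, and 7.15, 0.673, 1.75 and 0.980 for Cma1. With empty vectors and with SETBP1, mean Prtn3 was 1785 and 1799, Ctsg 1079 and 1125, and Tpsb2 7.74 and 11.3 CPM. The means of Ltf, Camp, Ngp, Mpo, Elane, Ms4a3, Cpa3, Mcpt8, Fcer1a, Ms4a2 and Prss34 did follow the order of the sums. With SETBP1, 6 of 7, 2 of 5 and 5 of 8 genes of the lists were called lower, where 6.55% of all genes were. The 8 monocyte and macrophage genes summed to 4645 to 4976, 4891 to 5948, 4639 to 4831 and 4181 to 4736 CPM. Ly6c2, at a mean of 3250 CPM with empty vectors, led this sum, and single genes moved both ways. Against empty 3, 3 and 4 of the 8 were called higher and 1, 2 and 1 lower with SETBP1, NRAS and both. Of all genes, 14.9%, 32.5% and 40.6% were called. Mean Cd14 was 32.8, 96.8, 358 and 349 CPM and mean Adgre1 108, 144, 49.2 and 84.1 CPM in the order of groups. The 8 proliferation genes summed to 2115 to 2126, 1866 to 2041, 2301 to 2401 and 2230 to 2279 CPM.

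Ptprc, the pan-leukocyte marker CD45, was 175 to 329 CPM in all libraries. Hba-a1 and Hbb-bs of red cells, Pax5 of B cells, Cd3e and Cd8a of T cells and Cxcl12 of stroma had no count in any library. The 4 remaining erythroid genes summed to at most 11.1 CPM, the B cell genes to at most 21.6, the T cell genes to at most 0.553 and the adipocyte and stroma genes to at most 1.06, while the 4 megakaryocyte genes ran from 116 to 466. The part of the marker changes in the lipid gene results was not tested.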

How the data were processed

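RNA of transduced mouse bone marrow was measured by sequencing in 12 libraries, 3 per group, grouped by the retroviral transduction in the labels. Per the labels' protocols, total RNA came from a column kit for small samples and was made into libraries by a SMART-Seq kit for ultra-low input. The values the authors deposited are raw counts, whole numbers per gene symbol, in 1 table for all libraries. Per the submitters' processing notes, STAR, DESeq2 and the build mm10 were used, with no version or role named; the counting tool, annotation, strand setting and treatment of multimapped reads are not given in the sources used here. Without these, reads of close paralogs and overlapping genes may be shared or lost.

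From the counts, edgeR 4.0.16 in R 4.3.3 kept 10993 genes (filterByExpr, minimum count 10 and minimum total 15), which hold 99.9% of the counts, scaled them by TMM and fitted a quasi-likelihood model with 4 group means to all 12 libraries. P-values are two-sided, with Benjamini-Hochberg adjustment across the 10993 genes in each comparison. Intervals are 95% and use the degrees of freedom of that fit. Normalised CPM is the count relative to the TMM-scaled total of tested genes. Libraries held 7085894 to 8864919 counts, at which genes such as Scd1 are limited by counting error. Exon lengths and gene positions are from GENCODE M21 (GRCm38), promoter windows from RefSeq (GRCm38.p6). The steps were tested on simulated counts.

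Values in every library are given for 5 regulators, Scd1, Scd2 and, per pairwise comparison, the 4 called genes that rose or fell most; other genes are given by fold change or range. The genes, the related and marker lists and this rule were chosen with earlier results of these data known. Some genes of the related list are counted but not reported here by name. The relation of the third SETBP1 library to exon length, the genes whose promoters are printed, and the values without that library beside a call were chosen after seeing the data. Alternatives were DESeq2 1.42.0, limma-voom (limma 3.58.1), 3 other scalings, 2 other low-count filters, a fit of only the groups compared, a robust fit, the replicate number as a block, an adjusted p of 0.01, a minimum fold change of 2, and omission of each library in turn.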

Additional observations from a re-analysis of the deposited data

How the results depend on the processing

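No call of a lipid gene changed direction in any alternative. Of the calls against empty, 8 of 14 with NRAS and 13 of 19 with SETBP1+NRAS held in all 23 alternatives that keep a test for single genes, as did 11 of 15 for SETBP1+NRAS against SETBP1, but 0 of 10 with SETBP1 and 0 of 1 for SETBP1+NRAS against NRAS. For SETBP1 against empty the count of 10 became 0 with only the groups compared, 1 at an adjusted p of 0.01, 0 with a fold change of at least 2, and 1 to 13 when a library was left out. For NRAS against empty 14 became 8 at an adjusted p of 0.01 and 2 with a fold change of at least 2, and ran from 10 to 19 without 1 library. For SETBP1+NRAS against empty 19 became 6 with a fold change of at least 2 and ran from 14 to 23 without 1 library; its median of -0.39 became -0.52 under library size scaling, where the median of all genes moved to -0.13. For SETBP1+NRAS against NRAS the count of 1 became 4 with DESeq2, 2 with library size scaling, 9 with only the groups compared, 0 at an adjusted p of 0.01, 0 with a fold change of at least 2, and 0 to 9 without 1 library. For SETBP1+NRAS against SETBP1 15 became 4 with a fold change of at least 2 and ran from 12 to 17 without 1 library. The interaction stayed at 0 in every alternative. These counts stand without the share of all genes called in the same fit, so their changes are not shown to be particular to the lipid genes. For SETBP1+NRAS against NRAS, 1.91% of all genes were called with all libraries and 7.52% without the third SETBP1 library. A stricter threshold calls fewer genes by construction. For the other changes the cause was not tested.

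With the replicate block the counts were 8, 13, 19, 1 and 15 for the pairwise comparisons in the order above and 0 for the interaction. For libraries with the same number, the correlation of their deviations from the group means ran from -0.13 to 0.12 over 18 pairs. For unlike numbers it ran from -0.14 to 0.16 over 36 pairs. No pairing by number was seen, though 3 libraries a group are too few to show that there is none.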
